A study of Mus musculus with 8 samples.

Results

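Cmah, Ighm, Asb2, Tox2 and Abcg3 are 5 genes of mouse macrophages that stood far below their control level after exposure to IL-6. They were taken by name from a count table of 55376 genes, of which 13721 had enough counts to be tested, and all 5 members were among those tested. The members were chosen by their measured fold change with IL-6 against control, which was strongly negative in these libraries, and because none is a classical interferon-stimulated gene. The labels name no interferon treatment, so a response of the 5 to interferon was not tested. Their IL-6 response is given as a description, with no test, and tests are given for the comparisons of genotype.

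Macrophages were grown from the bone marrow of male mice of 13 weeks, 3 for each genotype, in medium with M-CSF at 50 ng/mL. The 4 groups were DNMT3A-HET (HET) macrophages given IL-6 at 10 ng/mL on day 6, HET control macrophages without IL-6, wild-type (WT) macrophages given the same IL-6, and WT control macrophages. RNA was taken on day 8, after 2 days of IL-6, and each group had 2 libraries, numbered 1 and 2. The allele behind DNMT3A-HET, the mouse behind each library and any pooling of mice are not in the labels. A p-value here therefore sets a difference against how far these libraries spread, and a part or all of that spread may be technical. Whether a call carries over to other mice was not tested.

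IL-6 is a cytokine that signals through gp130, JAK kinases and mainly STAT3. Interferon-stimulated genes are switched on by a different set of factors, among them STAT2 and IRF9, which act at an interferon response element near the gene, and macrophages express many of these genes at a low steady level without added interferon. DNMT3A is a DNA methyltransferase that sets new methylation marks. The 5 genes have unrelated products. Cmah encodes the hydroxylase that turns the sialic acid Neu5Ac into Neu5Gc, and the human gene is inactive. Ighm encodes the constant region of the IgM heavy chain, a product of the B lineage. Asb2 encodes the substrate-recognition subunit of a cullin-5 ubiquitin ligase whose known targets include filamins. Tox2 encodes a DNA-binding protein of the HMG-box TOX family. Abcg3 encodes a mouse member of the G family of ABC transporters.

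Library totals were 18926641 to 24881197 counts, other than 50137897 in HET IL-6 number 2. Values are counts scaled to library size by TMM (CPM), and 3 counts, the floor used here for a gene at 0, were worth 0.0607 to 0.161 CPM. Levels after ± are the SD over n = 2 libraries. Dnmt3a, the gene named in the genotype, had 140 and 213 CPM in HET IL-6, against 174 and 183 CPM in WT IL-6. In control macrophages it had 166 and 248 CPM in HET, against 275 and 243 CPM in WT. The genotypes overlapped in both treatments. The log2 difference of HET from WT was -0.02 in IL-6 (edgeR quasi-likelihood test, adjusted p = 0.972) and -0.32 in control (adjusted p = 0.506), so the count of this gene did not check the genotype labels. Where a deletion would lie in the gene was not analysed here. As a check of the cell type label, 10 macrophage genes, among them Csf1r and Adgre1, all had enough counts to be tested. They summed to 16319 to 16838 CPM in HET IL-6 and 14501 to 14523 CPM in HET control. In WT the sum was 17242 to 18310 CPM with IL-6 and 14107 to 14652 CPM in control, so it was higher with IL-6 in both genotypes.

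The start-site windows of the members are shown first because the genes were picked as ones outside the classical interferon set. RefSeq (GRCm38.p6) windows of 300 bases, 250 before and 50 after each start, were on hand for 4 of the 5 members, with 2 for Cmah, 2 for Asb2, 5 for Tox2 and 1 for Abcg3. Each window was searched on both strands for the core of the interferon response element (GAAA, any 2 bases, GAAA) and for a STAT site (TTCNNNGAA), an AP-1 site (TGANTCA) and a PU.1 site (GAGGAAGT). The bases before the start are printed 5′ to 3′ on the gene's strand, with matches in capitals, for the gene most lowered on average over the genotypes (Cmah), for Abcg3, for the single Tox2 start that had a match apart from a neighbour 1 base away, and for the interferon gene Ifit3, whose levels were most like those of Abcg3. The Tox2 line runs 5 bases past the start so that its match is whole.
Cmah, chr13:24327154-24327403, plus strand: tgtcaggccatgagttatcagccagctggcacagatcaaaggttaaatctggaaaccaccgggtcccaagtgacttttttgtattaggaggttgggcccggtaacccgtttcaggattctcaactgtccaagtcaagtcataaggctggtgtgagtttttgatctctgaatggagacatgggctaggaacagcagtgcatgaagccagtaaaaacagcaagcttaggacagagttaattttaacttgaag
Abcg3, chr5:104982718-104982967, minus strand: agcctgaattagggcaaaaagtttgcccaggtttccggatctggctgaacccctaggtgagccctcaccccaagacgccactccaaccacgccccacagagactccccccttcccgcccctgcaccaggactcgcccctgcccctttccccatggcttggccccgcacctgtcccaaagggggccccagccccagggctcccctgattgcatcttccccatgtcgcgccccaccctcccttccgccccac
Tox2, chr2:163225203-163225457, plus strand: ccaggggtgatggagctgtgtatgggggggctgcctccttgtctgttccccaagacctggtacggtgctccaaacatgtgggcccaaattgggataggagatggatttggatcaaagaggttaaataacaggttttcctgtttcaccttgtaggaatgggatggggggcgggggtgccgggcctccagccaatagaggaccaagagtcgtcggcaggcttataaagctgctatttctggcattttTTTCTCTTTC
Ifit3, chr19:34583279-34583528, plus strand: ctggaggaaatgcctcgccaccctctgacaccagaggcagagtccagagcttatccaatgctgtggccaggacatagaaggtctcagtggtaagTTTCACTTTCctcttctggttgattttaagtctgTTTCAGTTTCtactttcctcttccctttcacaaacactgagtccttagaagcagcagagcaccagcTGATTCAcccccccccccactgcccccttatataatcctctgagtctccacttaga

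The interferon core was found in 3.443% of 32851 mouse windows of this length. It stood in Tox2 windows 4 and 5, where it began 5 and 6 bases before the start on the minus strand, and in no window of Cmah, Asb2 or Abcg3. Ifit3 held 2 copies, 156 and 122 bases before its start, with an AP-1 site 56 bases before it. A PU.1 site, present in 3.202% of windows, lay 8 bases after the Abcg3 start and so outside the bases printed. No window of a member held the STAT site, which 8.298% of windows had, or the AP-1 site, which 7.808% had. Tox2 window 1 was the richest of the first windows in CpG, the dinucleotide that DNMT3A can methylate, with 38, against 11 for Abcg3, 6 for Asb2 and 3 for Cmah and a median of 7 over all windows. A match is a run of letters and not a measured binding site, and a window without one says only that the letters are not there.

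All 5 genes were lower in every IL-6 library than in every control library of either genotype. How many of all tested genes separate in this way was not counted. Averaged over genotype, the log2 fold change was -2.68 for Cmah, -2.44 for Ighm, -2.34 for Asb2, -2.19 for Abcg3 and -2.09 for Tox2. Ordered from the most lowered of the 13721 tested genes, these stood at places 9, 11, 14, 23 and 30. The median over all tested genes was -0.01, and 23.6% of them were called (edgeR adjusted p under 0.05), 12.8% lower and 10.8% higher, which was 1759 lower and 1484 higher. With scaling to total counts the split was 2234 lower and 1193 higher. Within HET 18.3% were called, 9.41% lower and 8.87% higher, and within WT 18.3%, 10.4% lower and 7.91% higher. These contrasts chose the 5 genes, so nothing is read from the comparison. In bulk RNA, fewer cells that express a gene and less of its RNA per cell cannot be told apart.

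**Figure D1:**
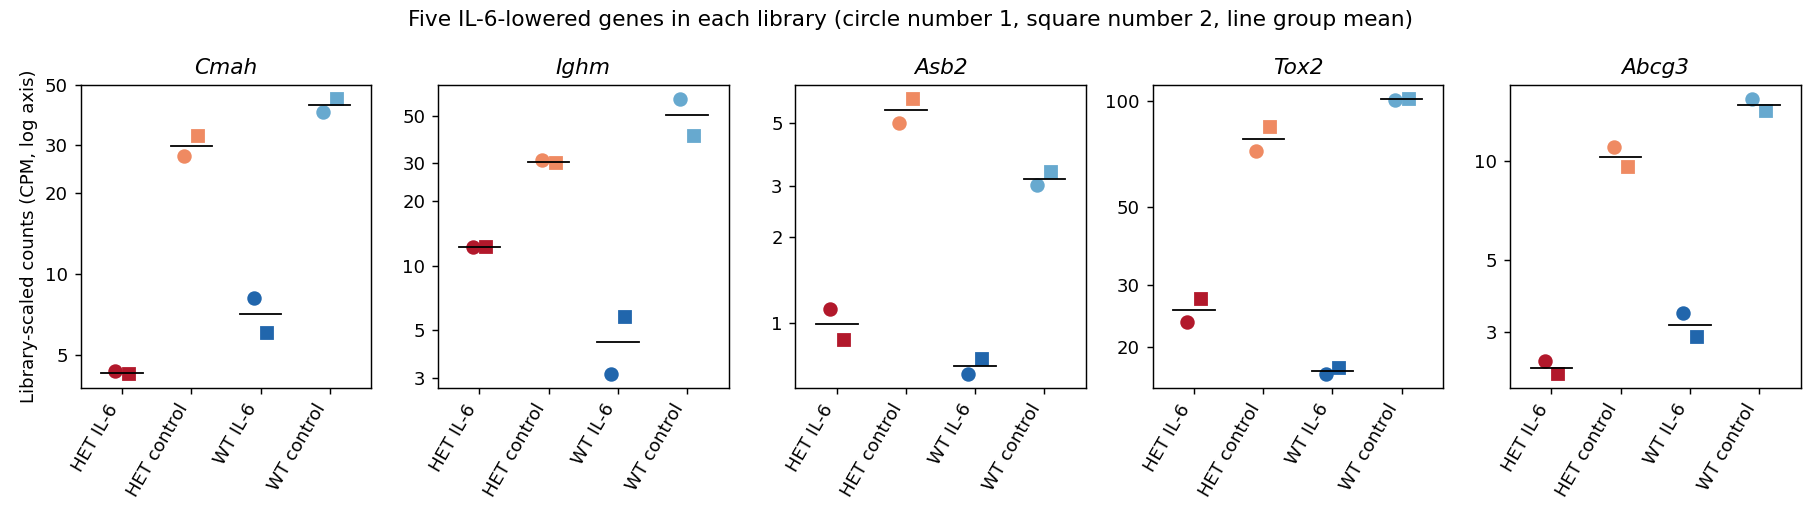
Library-scaled counts (CPM, log axis) of the 5 genes in each library, with HET IL-6, HET control, WT IL-6 and WT control from left to right, circles for number 1, squares for number 2 and a line at the group mean. In each panel the IL-6 libraries lie below all control libraries, and no neighbouring groups in the order of levels overlap. How often groups separate in this way over all tested genes was not counted.

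Cmah, the sialic acid hydroxylase, had 4.35 and 4.23 CPM in HET IL-6, against 27.3 and 32.3 CPM in HET control. In WT it had 8.14 and 6.05 CPM with IL-6, against 40.0 and 44.6 CPM in control. The HET libraries were lower than the WT libraries in both treatments, with no overlap, a separation that was not counted over all tested genes. The level left after IL-6 was 14.6% and 14.2% of the control mean in HET and 19.3% and 14.3% in WT.

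Ighm, the IgM heavy chain, had 12.2 and 12.2 CPM in HET IL-6, against 31.1 and 30.1 CPM in HET control. In WT it had 3.10 and 5.73 CPM with IL-6, against 60.2 and 40.3 CPM in control. The order of the genotypes thus differed between treatments, with HET above WT under IL-6 and below it in control. HET macrophages kept 39.9% and 40.0% of their control mean, and WT macrophages 6.16% and 11.4%.

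Asb2, the ubiquitin ligase subunit, was the least expressed of the 5, also per kilobase. It had 1.12 and 0.870 CPM in HET IL-6, against 4.98 and 6.06 CPM in HET control. In WT it had 0.661 and 0.750 CPM with IL-6, against 3.03 and 3.35 CPM in control. It was the only member that stood higher in HET than in WT in both treatments. Its IL-6 libraries held only 14 to 43 counts each, so its level there was the least precise. The share left was 20.2% and 15.8% in HET and 20.7% and 23.5% in WT.

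Tox2, the HMG-box factor, had 23.6 and 27.5 CPM in HET IL-6, against 72.2 and 84.4 CPM in HET control. In WT it had 16.7 and 17.4 CPM with IL-6, against 101 and 102 CPM in control. As with Ighm, HET stood above WT under IL-6 and below it in control. HET kept 30.1% and 35.1% of its control mean and WT 16.5% and 17.2%.

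Abcg3, the transporter, had 2.44 and 2.23 CPM in HET IL-6, against 11.1 and 9.62 CPM in HET control. In WT it had 3.43 and 2.89 CPM with IL-6, against 15.6 and 14.2 CPM in control. As with Cmah, HET was lower than WT in both treatments. The share left was 23.6% and 21.5% in HET and 23.0% and 19.4% in WT, which overlap.

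**Figure D2:**
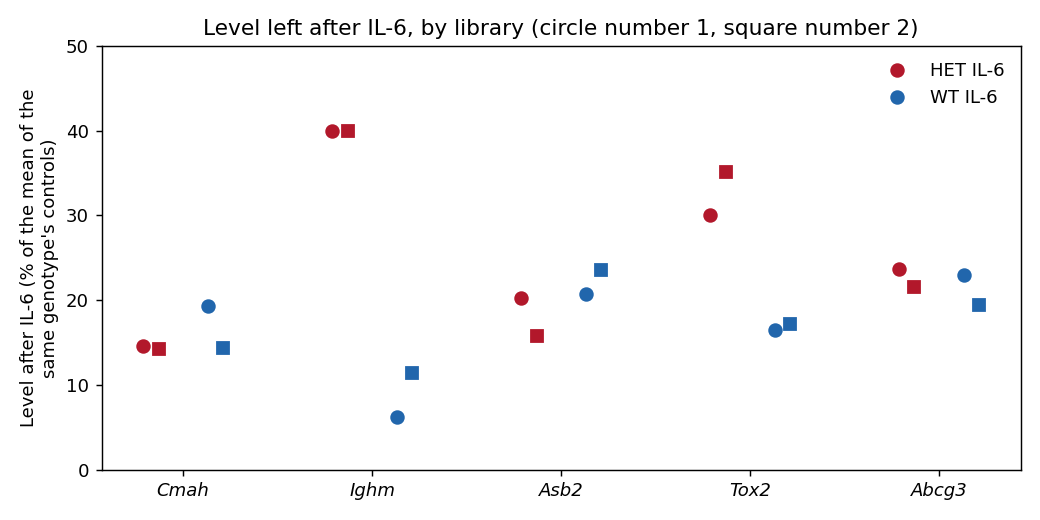
Level of each gene in each IL-6 library as a percent of the mean of the controls of the same genotype, HET left of WT, with circles for number 1 and squares for number 2. For Ighm and Tox2 the HET libraries, at 30.1% to 40.0%, lie above the WT libraries, at 6.16% to 17.2%, for Cmah and Abcg3 the genotypes overlap, and for Asb2 the HET libraries, at 20.2% and 15.8%, lie just below those of WT. How often the genotypes separate in this way over all tested genes was not counted.

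Compared per kilobase of exon, the scale on which genes can be set side by side, Tox2 and Ighm were the most abundant of the 5. In WT control they had 29.8 ± 0.13 and 26.7 ± 7.5 CPM per kilobase, and 87.9% and 86.6% of tested genes had that level or a lower one. Abcg3 had 4.20 ± 0.26, Cmah 3.97 ± 0.31 and Asb2 0.900 ± 0.065 CPM per kilobase in the same group, at the percentiles 48.1, 46.9 and 23.9. The levels of Abcg3 and Cmah differed by less than their spread. In WT IL-6 Tox2 and Ighm were at the percentiles 52.5 and 37.8, and Abcg3, Cmah and Asb2 at 24.0, 20.7 and 8.43. In HET IL-6 Tox2 and Ighm were at the percentiles 61.2 and 57.9, while Abcg3, Cmah and Asb2 stood at 20.5, 15.1 and 11.7.

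Under IL-6, 3 of the 5 genes differed between HET and WT, 2 higher and 1 lower, where 22% of all tested genes did, 13.2% higher and 8.8% lower. Ighm was higher in HET (log2 difference 1.51 ± 0.26 SE, edgeR adjusted p = 0.00328) and so was Tox2 (0.59 ± 0.11, adjusted p = 0.00228). Cmah was lower in HET (-0.74 ± 0.16, adjusted p = 0.00590). Abcg3 at -0.46 ± 0.18 (adjusted p = 0.0835) and Asb2 at 0.46 ± 0.31 (adjusted p = 0.307) did not pass. The call on Ighm held when any 1 library was left out, with adjusted p up to 0.0310. That on Cmah was lost without WT IL-6 number 1 (-0.50, adjusted p = 0.139) and without HET IL-6 number 2 (-0.73, adjusted p = 0.0598), and that on Tox2 without HET IL-6 number 2 (0.45, adjusted p = 0.0607).

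In control macrophages 4 of the 5 genes passed the test between HET and WT, 1 higher and 3 lower, where 4.85% of all tested genes did, 2.81% higher and 2.05% lower. Cmah (log2 difference -0.50 ± 0.12, edgeR adjusted p = 0.0320), Abcg3 (-0.53 ± 0.13, adjusted p = 0.0389) and Tox2 (-0.37 ± 0.10, adjusted p = 0.0412) were lower in HET. Asb2 was higher (0.79 ± 0.21, adjusted p = 0.0436). Ighm, at -0.72 ± 0.20, did not pass (adjusted p = 0.0670). Its groups did not overlap, but how many of all tested genes share this was not counted. All 4 calls lay close to the threshold and depended on single libraries. They were lost without either HET IL-6 library, which only adds to the estimate of spread (adjusted p from 0.0569 to 0.0662), and without HET control number 1 (adjusted p = 0.343 for Cmah, 0.171 for Abcg3, 0.416 for Tox2 and 0.168 for Asb2). They were also lost without HET control number 2 (0.0639, 0.265, 0.0639 and 0.277 in that order) and WT control number 2 (0.105, 0.0596, 0.0771 and 0.0986). Without WT control number 1, Abcg3 (0.0844) and Asb2 (0.0957) were lost. Ighm passed without WT IL-6 number 1 (0.0243), WT IL-6 number 2 (0.0222) or WT control number 2 (0.00802). Over all genes the count of calls was 666, with 33 left without HET control number 1 and 1304 without WT control number 1.

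Averaged over treatment, 3 of the 5 genes differed, 1 higher and 2 lower, where 19.9% of tested genes did, 11.9% higher and 7.99% lower. Cmah was lower in HET by a log2 difference of -0.62 ± 0.10 (edgeR adjusted p = 0.00138), a call that held without any 1 library, and Abcg3 was lower by -0.49 ± 0.11 (adjusted p = 0.00975). Asb2 was higher by 0.63 ± 0.19 (adjusted p = 0.0304). The call on Abcg3 was lost without HET IL-6 number 2 (adjusted p = 0.0645) or WT IL-6 number 1 (0.0695). That on Asb2 was lost without HET IL-6 number 1 (0.107) or 2 (0.0631), HET control number 2 (0.110), WT IL-6 number 1 (0.138) or WT control number 2 (0.0535). Tox2 at 0.11 (adjusted p = 0.304) and Ighm at 0.39 (adjusted p = 0.116) averaged opposite differences. Ighm passed without WT IL-6 number 2 (0.0155) or WT control number 1 (0.00695).

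The response to IL-6 itself differed between the genotypes for 2 of the 5 genes, Ighm and Tox2, both with a higher value in HET, where 8.12% of tested genes differed, 4.52% higher and 3.6% lower. For Ighm the log2 fold change with IL-6 was -1.32 in HET and -3.55 in WT, a difference of 2.23 ± 0.33 (edgeR adjusted p = 0.00333). For Tox2 it was -1.61 in HET and -2.57 in WT, a difference of 0.96 ± 0.14 (adjusted p = 0.00129). Both genes were thus lowered less in HET. Ordered from the most lowered, Ighm stood at place 5 in WT and 201 in HET, and Tox2 at 20 and 113. A choice of members that leaned on the fall in WT would favour such a difference, and this was not tested. Both calls held without any 1 library, with adjusted p up to 0.0162 for Ighm and 0.0150 for Tox2. Cmah was at -2.80 in HET and -2.56 in WT, a difference of -0.24 ± 0.20 (adjusted p = 0.529). Asb2 was at -2.51 in HET and -2.18 in WT (-0.33 ± 0.38, adjusted p = 0.664), and Abcg3 at -2.16 in HET and -2.23 in WT (0.07 ± 0.23, adjusted p = 0.901). A difference of these sizes was within its error, which does not show that the responses were alike.

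**Figure D3:**
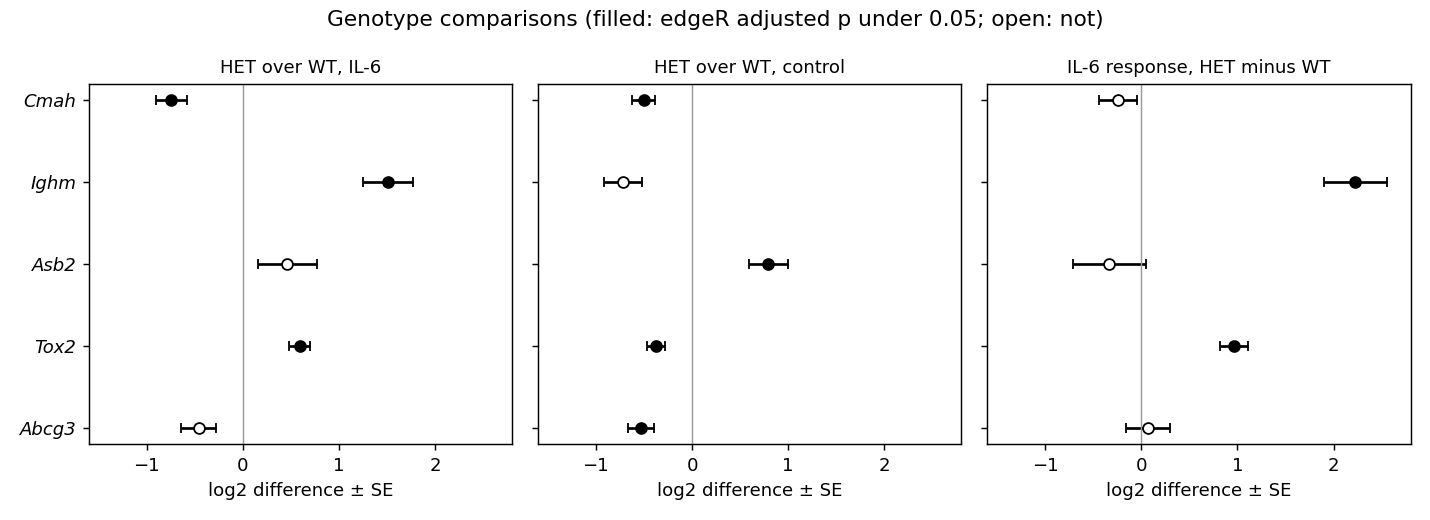
Log2 differences with SE for the 5 genes, for HET over WT in IL-6 (left), HET over WT in control (middle) and the IL-6 response of HET minus that of WT (right), filled where the edgeR adjusted p was under 0.05. Ighm and Tox2 lie above 0 in IL-6 and below 0 in control, and are the 2 filled points on the right, at 2.23 and 0.96.

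Ighm belongs to the B lineage, so that lineage was checked in the same libraries. Of 33 other B-lineage genes, 14 were at 0 in all 8 libraries, among them Pax5, the B-cell identity factor, the recombinase genes Rag1 and Rag2, and the light-chain constant genes Iglc1, Iglc2 and Iglc3. Igkc, the kappa light chain, had 4 counts in total. The antigen-receptor chain Cd79a had at most 5 counts in a library, while its partner Cd79b had up to 45 (0.428 to 1.11 CPM). The inhibitory receptor Cd22, one of the 33 and also listed with the sialic acid genes, had up to 165 (1.75 to 3.34 CPM). Against this, Ighm had 295 and 605 counts in HET IL-6, 712 and 720 in HET control, 75 and 107 in WT IL-6 and 1513 and 915 in WT control. The 380 variable, diversity and joining segments of the immunoglobulin genes, counted after the Ighm values were known, summed to 10 to 25 counts a library, or 0.496 to 0.920 CPM.

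Only 6 of the 33 had enough counts to be tested. With IL-6, averaged over genotype, Bank1, a scaffold of B-cell signalling, fell (-1.30 ± 0.13, edgeR adjusted p = 5.67e-06) and so did the adaptor Blnk (-0.35 ± 0.05, adjusted p = 0.000250), while Cd72 and Pou2f2 rose (0.45 and 0.41). Summed over the 33 genes, the level was 529 to 541 CPM in HET IL-6, 498 to 516 CPM in HET control, 578 to 593 CPM in WT IL-6 and 457 to 462 CPM in WT control. This sum was carried by Cd72 and Blnk, which averaged 268 to 423 and 112 to 147 CPM over the groups, and it did not follow the order of the Ighm levels. Pax5, Igkc and Cd79a were thus at or near 0 in every group, while Cd79b and Cd22 were low but detected and passed the test neither with IL-6 nor between the genotypes.

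**Figure D4:**
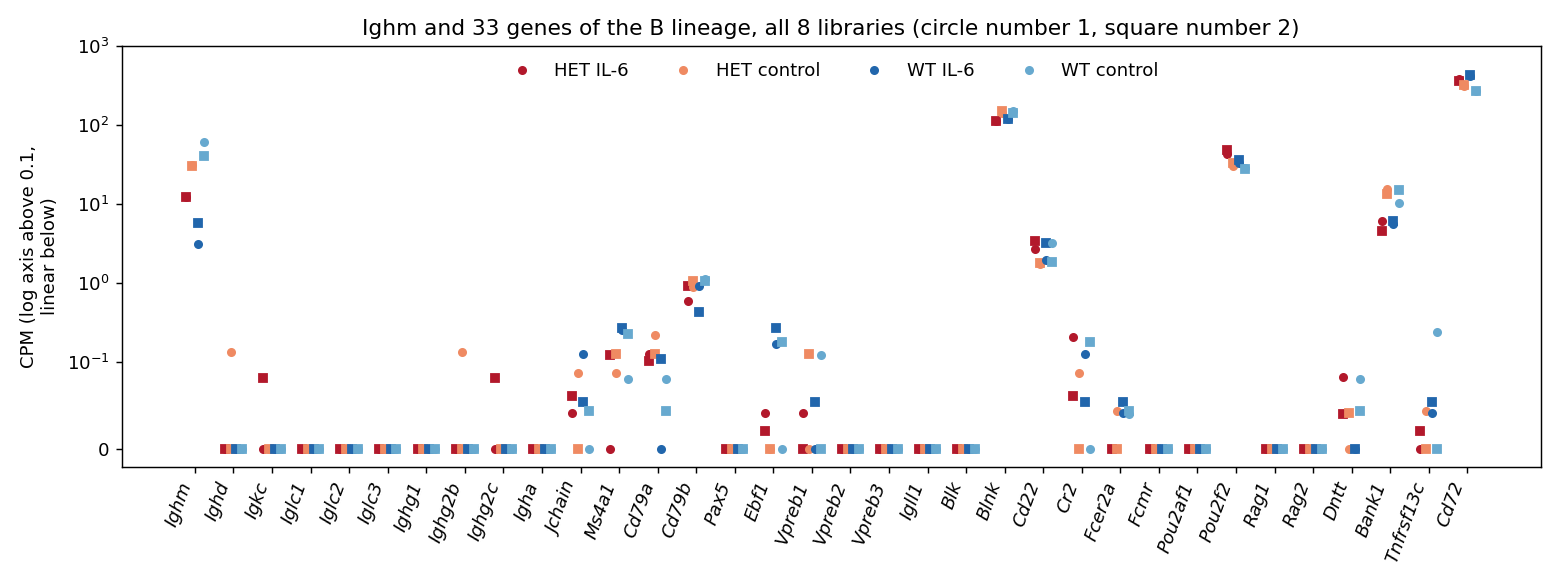
CPM of Ighm and of 33 other genes of the B lineage in all 8 libraries, on an axis that is logarithmic above 0.1 and linear below, with circles for number 1 and squares for number 2. Ighm spans 3.10 to 60.2 CPM, 27 of the other genes stay under 1 CPM in every library, and 14 lie at 0 throughout.

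Markers of other cell types were counted in the same libraries. Of 14 T and NK cell genes 7 were at 0 in all libraries, and their sum was 1.72 to 3.89 CPM in HET IL-6, 2.05 to 2.22 CPM in HET control, 1.07 to 1.32 CPM in WT IL-6 and 2.43 to 5.45 CPM in WT control. Of these genes Cd4 was at 0.20 ± 0.58 with IL-6 in HET and was lower with IL-6 in WT (-2.48 ± 0.65, edgeR adjusted p = 0.0233), with a difference of response of 2.68 that did not pass (adjusted p = 0.0975). Of 11 dendritic cell genes 2 were at 0 throughout and all 11 stayed under 1 CPM, with sums of 1.51 to 2.61 CPM. Of 10 stromal and endothelial genes 1 was at 0 throughout, and their sum moved with the treatment, at 58.8 to 60.9 CPM in HET IL-6, 30.3 to 31.4 CPM in HET control, 57.1 to 67.4 CPM in WT IL-6 and 38.0 to 41.1 CPM in WT control. The 12 neutrophil and progenitor genes, none of them at 0 throughout, summed to 14.96 to 17.77 CPM in HET IL-6, 24.3 to 32.3 CPM in HET control, 35.3 to 45.5 CPM in WT IL-6 and 19.0 to 19.5 CPM in WT control. The stromal and endothelial sum was mostly the endothelial receptor Kdr, at 52.3 and 53.1 CPM in HET IL-6, 25.2 and 27.2 CPM in HET control, 52.8 and 48.6 CPM in WT IL-6 and 33.1 and 29.6 CPM in WT control.

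The neutrophil and progenitor sum was mostly Cd34, a marker of progenitors and endothelium, at 12.8 and 10.1 CPM in HET IL-6, 27.1 and 18.1 CPM in HET control, 41.4 and 30.9 CPM in WT IL-6 and 10.4 and 13.0 CPM in WT control. Cd34 fell with IL-6 in HET (-0.996 ± 0.21, edgeR adjusted p = 0.00667) and rose in WT (1.64 ± 0.21, adjusted p = 0.000266), with a difference of response of -2.63 ± 0.30 (adjusted p = 0.000621). Kit, the stem cell factor receptor, had 2.90 and 3.02 CPM in HET IL-6, 2.05 and 3.39 CPM in HET control, 1.32 and 1.55 CPM in WT IL-6 and 7.76 and 4.63 CPM in WT control. With IL-6 it was at 0.12 ± 0.28 in HET and fell in WT (-2.12 ± 0.30, adjusted p = 0.000171), a difference of 2.24 ± 0.41 (adjusted p = 0.00498). The neutrophil gene S100a9, at 0.318 to 1.22 CPM, had a difference of -2.50 ± 0.53 (adjusted p = 0.0117). Of the 10 macrophage genes, Mertk (0.67), Mrc1 (0.57) and Csf1r (-0.43) also differed in their response, where 8.12% of tested genes did. These markers moved with treatment and genotype beside the 5 genes, and their part in the results was not tested.

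The classical interferon genes fell with the 5. Of 45 type I interferon-stimulated genes, all tested, 44 were lower with IL-6 averaged over genotype and 0 higher, where 12.8% and 10.8% of tested genes were, with a median log2 fold change of -0.89 against -0.01 over all tested genes. Ifi27l2a was the exception. The largest falls were in Ifit3b (-2.79 ± 0.10, edgeR adjusted p = 1.64e-10) and Ifit3 (-2.15 ± 0.08, adjusted p = 2.50e-10), near-identical copies among which reads may be divided. Only these 2 of the 45 fell by over 2 on the log2 scale. All 5 members did so on this average, but they were chosen for a strong fall, so nothing is read from the comparison. Between HET and WT under IL-6, 14 of the 45 were higher in HET and 0 lower, where 13.2% and 8.8% of all tested genes were. Those with the smallest p were Oasl1 (0.84), the regulator Irf7 (0.62) and Stat2 (0.53). In control, where 2.81% of tested genes were higher and 2.05% lower, 0 were higher and 1, Ifi44, was lower (-0.65 ± 0.15, adjusted p = 0.0294). The response differed by genotype for 5, Oas1g, Oasl1, Irf7, Stat2 and Zbp1, each lowered less in HET, as Ighm and Tox2 were, where 4.52% of tested genes had a higher and 3.6% a lower value in HET.

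Interferon receptors and their signalling parts did not move one way. Of 15 listed, 12 were tested, and with IL-6 the receptor genes Ifnar1 and Ifngr2 and the kinase gene Jak1 rose (0.26, 0.33 and 0.21), while Socs1, an inhibitor of the pathway, fell (-1.31), as did Tyk2 and Irf5 (-0.26 and -0.21). The interferon genes Ifnb1, Ifna4 and Ifng had at most 7 counts, 1 count and 0 counts in a library.

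The pattern of each member over the 8 libraries was set against 11565 tested genes other than the members, with a mean of at least 1 CPM, by the root mean square difference of log2 levels centred on each gene's own mean. Of these genes, Cmah was most like Ifit3b (0.28), Ifit3 (0.34) and Gbp6 (0.45), and Abcg3 most like Ifit3 (0.20), Gbp6 (0.24) and Rnf144b (0.31). Tox2 was most like the predicted gene Gm11382 (0.25), the interferon-inducible Ifi208 (0.27) and Rasgrp3 (0.28). Ighm was most like Samd4 (0.44), Nrg2 (0.47) and Egr3 (0.48), and Asb2 most like Slc6a12 (0.27), Ramp1 (0.28) and Hap1 (0.33). For Cmah, Abcg3 and Tox2 an interferon or guanylate-binding protein gene was among these 3, and for Ighm and Asb2 none was. The measure includes the fall with IL-6 that chose the members, and 44 of the 45 listed interferon genes fell too. A link of the members to interferon is therefore not read from it. Among the members themselves Cmah and Abcg3 were closest, at 0.31, which was nearer than Ifit3 was to Cmah. Ighm and Tox2 were at 0.47, nearer than Egr3 was to Ighm, and Cmah and Ighm were farthest apart, at 0.88. These are descriptions over libraries that the 5 genes share, with no test.

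Each member was also set beside the 3 nearest tested genes on each side of it, in mm10 coordinates. Abcg3 (chr5:104935057-104982718, minus strand) lies at the edge of a cluster of guanylate-binding proteins, GTPases of cell-autonomous immunity. The 3 next genes on that side all fell with IL-6, Gbp8 by -1.81 ± 0.20 (edgeR adjusted p = 1.17e-05), Gbp9 by -1.47 ± 0.07 (adjusted p = 3.67e-09) and Gbp4 by -2.37 ± 0.25 (adjusted p = 6.92e-06). These copies resemble each other and overlap in the annotation, so their separate values are uncertain. On the other side of Abcg3, BC005561, D930016D06Rik and Zfp951 gave -0.14, -0.02 and 0.10 and did not pass.

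Beside Cmah (chr13:24327404-24477377, plus strand), Ripor2 fell with IL-6 (-1.66 ± 0.19, adjusted p = 1.36e-05) and BC005537 fell by less (-0.32 ± 0.08, adjusted p = 0.00876), while the other 4 neighbours did not pass. Beside Asb2 (chr12:103321142-103356001, minus strand), the predicted gene Gm15523, which lies on the opposite strand within the span of Asb2, fell (-2.22 ± 0.36, adjusted p = 0.000367), at 0.175 to 0.940 CPM, and Otub2 fell (-0.62 ± 0.12, adjusted p = 0.00166). Neighbours of Tox2 (chr2:163203125-163324170, plus strand) changed by -0.44 to 0.25. Of these Oser1 (-0.36, edgeR adjusted p = 0.000474), Mybl2 (-0.30, adjusted p = 0.0102) and Srsf6 (-0.21, adjusted p = 0.0307) fell. Those of Ighm (chr12:113418558-113422730, minus strand) changed by -0.46 to -0.04, and Crip1 (-0.46, adjusted p = 5.18e-05) and Tedc1 (-0.30, adjusted p = 0.00734) fell. The other neighbours of Tox2 and Ighm did not pass. The nearest tested neighbour of Ighm on 1 side lay 2629 kb away. None of the 5 members shares an exonic base with another gene in the GENCODE M21 annotation, which matters since the strand setting of the counting is not given in the sources used here.

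**Figure D5:**
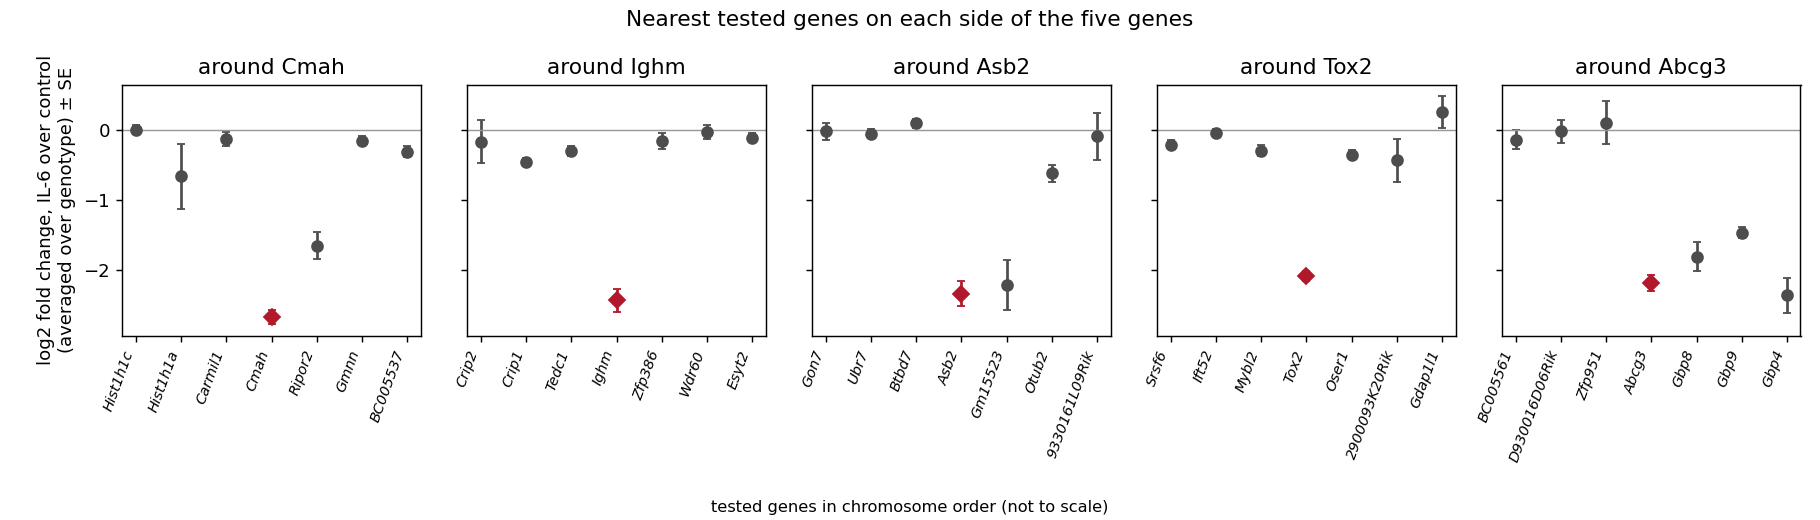
Log2 fold change with IL-6, averaged over genotype, with SE, for each member (diamond) and its 3 nearest tested genes on each side (circles), in chromosome order and not to scale. The genes to the right of Abcg3 (Gbp8, Gbp9 and Gbp4) and those next to Cmah and Asb2 (Ripor2 and Gm15523) lie at -2.37 to -1.47, while the neighbours of Tox2 and Ighm lie at -0.46 to 0.25.

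Genes that work with the members were followed as lists. Of 31 genes of sialic acid synthesis, transfer, removal and recognition, 26 were tested. With IL-6, averaged over genotype, 5 fell and 2 rose, where 12.8% and 10.8% of all tested genes did, with a median of -0.03 against -0.01 over all tested genes. The fallers with the smallest p were the sialic acid receptors Cd33 (-1.13 ± 0.06, edgeR adjusted p = 5.07e-09), Siglec1 (-0.75 ± 0.10, adjusted p = 9.74e-05) and Siglece (-0.96 ± 0.15, adjusted p = 0.000342), and the ganglioside sialyltransferase St3gal5 (-0.36 ± 0.06, adjusted p = 0.000381). Siglece and St3gal5 passed in HET only, at -1.55 and -0.77. In WT they were at -0.38 (adjusted p = 0.275) and 0.05 (adjusted p = 0.761). The synthesis genes Gne, Nans and Cmas, which supply the substrate of Cmah, gave -0.08, -0.03 and 0.04 and did not pass, and neither did Cyb5a and Cyb5r3 (0.04 and 0.07), which encode the electron donors of the hydroxylation. Between HET and WT, 3 were higher and 1 lower in IL-6, where 22% of tested genes were called, and 2 higher and 1 lower in control, where 4.85% were.

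Of 21 genes of the ASB2 ligase, its relatives and its targets, 19 were tested, and 3 rose and 1 fell with IL-6, a share near the 23.6% of all tested genes that were called. Jak3, a tyrosine kinase reported as an ASB2 target, rose (1.13 ± 0.07, edgeR adjusted p = 2.08e-08) and Asb13, which encodes a related subunit, fell (-0.56, adjusted p = 0.000775), while the core subunit gene Cul5 (0.10) and the filamin gene Flna (-0.09) did not pass. The average for Flna joins a fall in HET (-0.32, adjusted p = 0.0132) and a value of 0.15 in WT that did not pass (adjusted p = 0.246). Between HET and WT, 3 were higher and 2 lower in IL-6, near the background of 22%, and 2 higher and 0 lower in control, where 4.85% were called. Elob, a subunit shared by such ligases, was higher in HET in both treatments, by 0.88 in IL-6 (adjusted p = 8.76e-05) and 0.34 in control (adjusted p = 0.0481). Flna was the other gene higher in HET in control (0.38, adjusted p = 0.0218). Of the TOX family only Tox4 was otherwise tested, and its log2 fold change of -0.02 with IL-6 did not pass, while Tox and Tox3 had at most 3 counts and 1 count in a library. Of 5 other ABCG genes Abcg1, a cholesterol exporter, and Abcg2 were tested, and neither passed with IL-6 averaged over genotype (-0.28 and -0.01). For Abcg1 that average joins opposite changes, since it rose in HET (0.60 ± 0.17, adjusted p = 0.0324) and fell in WT (-1.15 ± 0.17, adjusted p = 0.000917). Abcg1 was higher in HET than in WT under IL-6 (1.24, adjusted p = 0.00103), and Abcg2 was lower (-0.57, adjusted p = 0.00430).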

How the data were processed

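Gene counts of 8 libraries were analysed as the authors deposited them, as a table of raw counts with 55376 genes. Per the labels' protocols, the kit kept strand and selected polyadenylated RNA. Per the submitters' processing notes the tools were fastp 0.12.4, STAR 2.7.9a, SAMtools 1.9 and featureCounts 1.6.2, with the build mm10. Neither the annotation release nor the strand setting of the counting is stated there.

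Counts were fitted in R 4.3.3 with edgeR 4.0.16 (filterByExpr with a minimum count of 10, TMM scaling, robust quasi-likelihood F test with 1 mean per group, 8 libraries, 4 residual degrees of freedom), after the same steps were tested on simulated data. Tests were 2-sided, p-values were adjusted over 13721 genes by the Benjamini-Hochberg method, and a gene was called at an adjusted p under 0.05. Both libraries of each group differed by more than sampling noise (chi-square per gene 6.66 to 19.2). Totals of 18926641 to 50137897 counts set the precision of each level, and floors of 3 counts cover counting error only. Alternatives were other scalings, filters and tools (DESeq2 1.42.0, limma 3.58.1), replicate blocks and leaving out libraries.

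Genotype contrasts and the difference of responses were tested because the averaged IL-6 contrast chose the members. The members and the gene lists were chosen with earlier results of these data known. Genes named were the members, Dnmt3a, up to 4 genes of a list with the smallest p, defining markers, the 3 genes most like a member and its 3 nearest tested genes on each side. Others were named after their values were seen, where they complete a small count or work directly with a member. Some genes are not reported here and were left out of the lists.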

Additional observations from a re-analysis of the deposited data

Results flagged for a closer look

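No group had enough libraries for a test of single outlying libraries. The IL-6 response was compared between HET and WT by the edgeR quasi-likelihood test of the difference itself, at an adjusted p under 0.05. It differed for 25 genes among the members, their lists and their neighbours. Over all 13721 tested genes 8.12% differed. The number of genes looked through here was not totalled, so nothing is read from the 25. Among the members the response differed for Ighm, by 2.23 ± 0.33 on the log2 scale, HET minus WT (adjusted p = 0.00333), and for Tox2, by 0.96 ± 0.14 (adjusted p = 0.00129).

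Of the sialic acid genes, the difference was -0.81 for St3gal5, -1.18 for Siglece and 0.46 for Cd33. Of the B-lineage genes it was -0.42 for Cd72. In the ASB2 list it was 0.55 for Elob and -0.47 for Flna, and among the transporters 1.74 for Abcg1 and -0.62 for Abcg2. Of the interferon genes it was 0.59 for Oas1g, 0.66 for Oasl1, 0.56 for Irf7, 0.63 for Stat2 and 0.62 for Zbp1. Of the neutrophil and progenitor genes it was 2.24 for Kit, -2.63 for Cd34 and -2.50 for S100a9, and of the macrophage genes 0.67 for Mertk, 0.57 for Mrc1 and -0.43 for Csf1r. Among chromosomal neighbours it was -0.45 for Gmnn, -0.43 for Crip1, -0.73 for Mybl2 and 1.68 for Gbp8. A negative value means that the log2 fold change with IL-6 was lower in HET than in WT.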

How the results depend on the processing

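The 5 members in 7 comparisons were recomputed under 18 to 20 alternatives each, which gave 684 values. Of these 678 kept their direction, 586 also their side of the threshold or, for the IL-6 values with no test, stayed within 1 SD, 63 lost their call and 14 gained one, and 15 untested values moved further. Tox2 in the difference of responses was called in 19 of 19 alternatives, Cmah averaged over treatment in 19 of 19, Ighm in the difference in 17 of 19 and Ighm under IL-6 in 19 of 20. Where a call changed by leaving out libraries, fewer samples were fitted, and otherwise the cause was not tested.

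With no filter on low counts, Ighm was called in control (-0.71) and averaged over treatment (0.41), and 1078 genes were called between HET and WT in control in place of 666. Ighm was also called in control with a minimum count of 50 (-0.72), with limma-voom (-0.69) and with only the 4 libraries compared (-0.72). DESeq2 lost the calls in control on Asb2 (0.79) and Abcg3 (-0.53). With only the 4 libraries compared, Tox2 in control was lost (-0.37), 437 genes were called in control, and 3945 in place of 2508 with IL-6 in HET.

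Leaving out both HET number 1 libraries lost the calls in control on Cmah (-0.38), Asb2 (0.93), Tox2 (-0.26) and Abcg3 (-0.63), on Asb2 averaged over treatment (0.62) and on Ighm in the difference (2.25), and moved Asb2 with IL-6 in HET to -2.78. Calls over all genes were then 79 in control, 1042 in IL-6, 720 averaged over treatment, 188 in the difference, 1724 with IL-6 averaged and 697 with IL-6 in HET. Leaving out both HET number 2 libraries lost those in control on Cmah (-0.63), Asb2 (0.65), Tox2 (-0.49) and Abcg3 (-0.43), in IL-6 on Cmah (-0.72), Ighm (1.502) and Tox2 (0.47), averaged on Asb2 (0.66) and Abcg3 (-0.40), and in the difference on Ighm (2.20). Tox2 averaged (-0.0108) and Asb2 in the difference (0.0256), neither of them called, then changed sign, and Asb2 was at -2.16 with IL-6 averaged and -2.15 in HET. The counts were 203, 862, 435, 428, 1715 and 835 in the same order.

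Without both WT number 1 libraries Ighm was called in control (-0.40) and averaged (0.35), and calls were lost in control on Asb2 (0.72) and Abcg3 (-0.46), in IL-6 on Cmah (-0.50) and averaged on Asb2 (0.54) and Abcg3 (-0.39). Cmah in the difference, not called, changed sign (0.0789), Cmah and Ighm were at -2.88 and -2.81 with IL-6 in WT, and 2917 genes were called in control and 3905 with IL-6 in HET. Without both WT number 2 libraries Ighm was called in control (-0.97) and averaged (0.50), calls were lost in control on Asb2 (0.87) and Tox2 (-0.37) and averaged on Asb2 (0.71), and Cmah and Ighm were at -2.29 and -4.27 with IL-6 in WT. The counts were 5058 in IL-6, 3448 in the difference, 4201 with IL-6 in WT and 3896 in HET.

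Leaving out 1 library at a time gave log2 values in control from -0.63 to -0.39 for Cmah, -0.98 to -0.40 for Ighm, 0.65 to 0.93 for Asb2, -0.49 to -0.26 for Tox2 and -0.63 to -0.43 for Abcg3. They ran in IL-6 from -0.93 to -0.50 for Cmah and 0.45 to 0.68 for Tox2, and averaged from 0.19 to 0.63 for Ighm, 0.55 to 0.73 for Asb2 and -0.55 to -0.43 for Abcg3. In the difference Cmah ran from -0.43 to 0.0038 and Abcg3 from -0.0422 to 0.21, neither of them called. With IL-6 in HET the range was -2.66 to -2.30 for Asb2 and -1.73 to -1.49 for Tox2, and in WT it was -2.80 to -2.37 for Cmah, -4.02 to -3.13 for Ighm and -2.36 to -2.12 for Abcg3. The counts of calls ran from 33 to 1304 in control, 879 to 4000 in IL-6, 940 to 4500 averaged, 304 to 2124 in the difference, 1201 to 3061 with IL-6 in HET and 1577 to 3073 in WT.

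Deviations of same-numbered libraries correlated between treatments with r = 0.15 in HET and -0.11 in WT. Between genotypes r was -0.06 in control and 0.02 in IL-6. These values cannot decide whether same-numbered libraries share a mouse, which the labels do not say. With the number as a replicate block across groups, the calls in control on Cmah (-0.50, adjusted p = 0.0633), Asb2 (0.79), Tox2 (-0.38) and Abcg3 (-0.53) were lost and 339 genes were called there. With the block within genotype 506 genes were called in the difference. With the WT numbers crossed, an alternative chosen after seeing the data, 3121 were called in the difference, 5144 with IL-6 averaged, 4443 with IL-6 in WT and 4435 in HET.

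The genes most like a member were the same 3 with a prior count of 0.5 in place of 2, in another order for Ighm and Asb2. Depth limits Asb2 most, with 14 to 43 counts in its IL-6 libraries.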
